A study of Mus musculus with 8 samples.

Results

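Laminins and their basement membrane partners were followed as 10 genes, Lama1, Lama2, Lama4, Lama5, Lamb1, Lamc1, Nid1, Nid2, Hspg2 and Sparc, chosen by gene symbol from the 24421 genes in the count tables. They were examined in a mouse embryonic stem cell line that is a hybrid of the strains CAST/Ei and 129/Sv/Jae. Its cells either carried the HNRNPK 6A mutation (6A) or were wild type (WT), and were profiled by RNA sequencing after ribosomal RNA depletion. HNRNPK belongs to the hnRNP proteins, which bind RNA in the nucleus. The 4 groups, of 2 libraries each, were 6A cells at day 14 of differentiation, WT cells at day 14, undifferentiated 6A cells at day 0 and undifferentiated WT cells at day 0. Cells at day 0 had grown with leukemia inhibitory factor on irradiated mouse embryonic fibroblasts, which were removed at harvest. Cells at day 14 had lost the factor, passed through a suspension phase as embryoid bodies and spread on gelatin. The sources used here do not say what the 6A mutation substitutes or whether the 6A cells are a single clone.

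Basement membranes are thin sheets of extracellular matrix that underlie epithelia, wrap muscle and blood vessels, and are among the first matrices of the mouse embryo. Laminins are cross-shaped heterotrimers of an alpha, a beta and a gamma chain. They polymerize through their short arms and are anchored to cells by integrins and dystroglycan, and nidogens and perlecan join them to a network of type IV collagen. The main laminins of the early embryo pair the Lamb1 and Lamc1 products with that of either Lama1 or Lama5.

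The libraries held between 8146684 and 15540163 counts, and 3 counts corresponded to 0.193 to 0.368 CPM (counts scaled to library size). All 10 genes were among the 15458 that passed the filter on low counts. Hnrnpk, the targeted gene, averaged 366 ± 26.3 CPM in 6A and 485 ± 15.1 CPM in WT cells at day 14, and 533 ± 7.54 CPM in 6A and 794 ± 121 CPM in WT cells at day 0 (SD, n = 2 each), and both differences passed the test (edgeR adjusted p = 0.043 and 0.040), although each did not when any of several single libraries was left out. All 12 pluripotency markers were lower at day 14 than at day 0 in either genotype, in the direction of the labels. Transcripts from 6 Y-linked genes summed to at most 0.0965 CPM in 6A and 0 in WT at day 14, against 43.4 and 46.8 CPM in 6A and 28.2 CPM in both WT libraries at day 0. A list of 20 fibroblast and feeder genes summed to 6374 to 7068 CPM in 6A and 5350 to 5960 CPM in WT at day 0. RNA from feeders can therefore not be told apart from that of the stem cells at day 0 in counts of all reads, and its part in the results below was not tested.

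RefSeq promoter windows, from 250 bases before to 50 bases after the start of transcription, were at hand for 6 of the 10 genes (GRCm38.p6). The windows of Sparc, Lama2 and Lamb1 are printed because, among these 6, they had the largest differences between day 14 and day 0 in 6A cells. Capitals mark GGGCGG, the core of the GC box bound by Sp1, and GATAA, the core read by GATA factors, on either strand.
Sparc, chr11:55420031-55420330, minus strand: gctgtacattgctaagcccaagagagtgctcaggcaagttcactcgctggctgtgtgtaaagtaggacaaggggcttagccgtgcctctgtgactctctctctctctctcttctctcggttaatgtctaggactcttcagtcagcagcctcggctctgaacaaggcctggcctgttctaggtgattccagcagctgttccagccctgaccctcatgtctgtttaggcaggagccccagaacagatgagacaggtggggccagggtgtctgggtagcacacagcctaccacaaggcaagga
Lama2, chr10:27616893-27617192, minus strand: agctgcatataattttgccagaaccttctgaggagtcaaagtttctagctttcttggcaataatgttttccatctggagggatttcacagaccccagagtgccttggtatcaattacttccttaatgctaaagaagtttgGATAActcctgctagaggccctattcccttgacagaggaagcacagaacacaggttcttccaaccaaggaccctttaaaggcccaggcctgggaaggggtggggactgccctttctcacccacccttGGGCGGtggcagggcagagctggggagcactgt
Lamb1, chr12:31265043-31265342, plus strand: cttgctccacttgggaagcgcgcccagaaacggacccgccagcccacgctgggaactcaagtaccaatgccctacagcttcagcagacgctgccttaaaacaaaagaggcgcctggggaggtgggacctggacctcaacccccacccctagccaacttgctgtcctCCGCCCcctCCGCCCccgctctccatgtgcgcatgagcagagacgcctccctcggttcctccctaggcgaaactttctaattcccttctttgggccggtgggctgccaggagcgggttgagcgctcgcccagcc

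The Sparc window held neither motif, that of Lama2 held 1 GGGCGG and 1 GATAA, and that of Lamb1 held 2 GGGCGG, both read on the opposite strand. The windows of Lama5, Hspg2 and Nid1 held 4, 5 and 1 GGGCGG and no GATAA. Neither TATAAA, the TATA box, nor AGGTCA, an element read by nuclear receptors, was found in any of the 6, on either strand. Of 32851 RefSeq windows of the same length, 35.7% held GGGCGG, 25.4% GATAA, 13.6% TATAAA and 16.3% AGGTCA. The windows also differed in their number of CG dinucleotides, with 1 in Lama2, 4 in Sparc, 18 in Lamb1, 20 in Nid1, 24 in Lama5 and 27 in Hspg2, against a median of 7 over all windows. The starts of Lama2 and Sparc in RefSeq lie inside the genes as annotated in GENCODE M21, which extend further upstream, so these windows belong to one of several annotated starts.

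The 10 genes covered a wide range of levels. Divided by exon length, Sparc was the most abundant in every group, at 699 ± 39.8 CPM per kb in 6A and 545 ± 50.7 CPM per kb in WT at day 14, and at 163 ± 8.02 CPM per kb in 6A and 138 ± 18.8 CPM per kb in WT at day 0 (SD, n = 2 each). SPARC is a secreted calcium-binding glycoprotein that binds collagens. Lamc1, the gamma 1 chain, and Nid2, nidogen 2, came next in both groups at day 0, with levels per kb that overlapped between them. In 6A at day 14 Nid2 (158 ± 9.39 CPM per kb) lay narrowly above Lamc1 (150 ± 1.34 CPM per kb). The lower Nid2 library had 151.6 and the higher Lamc1 library 151.2 CPM per kb. WT cells at day 14 had a different order below Sparc, with Lamc1 at 129 ± 1.27, Nid1 at 109 ± 0.83 and Nid2 at 99.0 ± 5.20 CPM per kb, which did not overlap. Lama2, the alpha 2 chain known from muscle and peripheral nerve, was the lowest in every group, between 0.83 ± 0.059 CPM per kb in 6A at day 14, 1.48 ± 0.16 in WT at day 14, 0.28 ± 0.048 in 6A at day 0 and 0.21 ± 0.051 in WT at day 0. Lama4, the alpha 4 chain of vessels and mesenchyme, was the next lowest in all 4 groups.

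**Figure D1:**
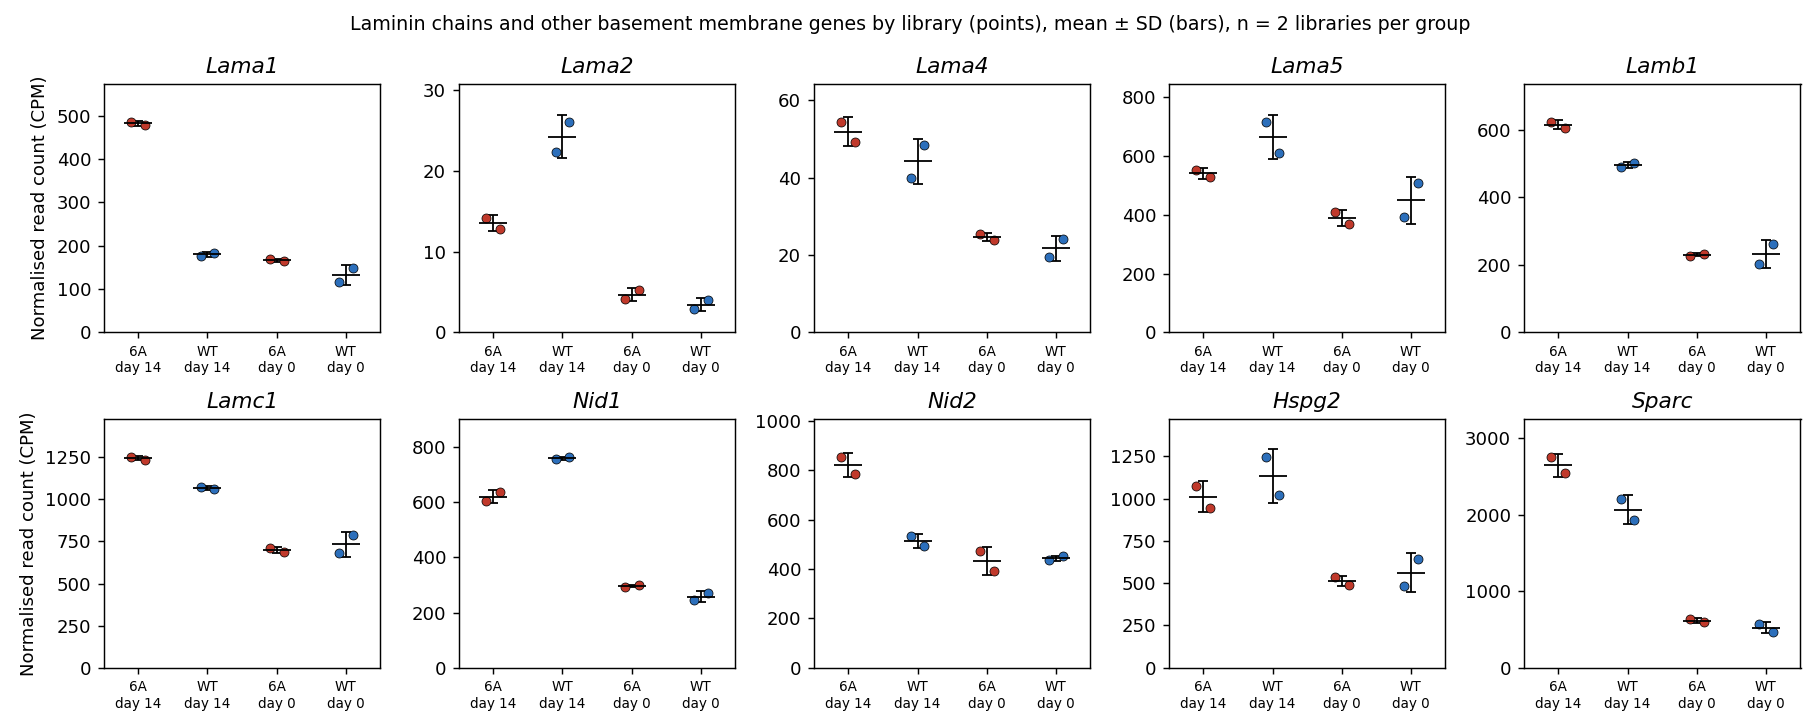
Normalised read count (CPM, linear axis from 0, own scale per gene) of the 10 genes by group; points are libraries and bars give the mean ± SD (n = 2). Lama1 stands apart in 6A at day 14, at 478 and 487 CPM, while the other 3 groups lie between 116 and 184 CPM.

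The effect of the 6A mutation after differentiation was asked at day 14. Of the 10 genes, 2 were higher in 6A (Lama1 and Nid2), 1 was lower (Lama2) and 7 did not pass the test. The count was 6 without either WT library at day 0, when Sparc (adjusted p = 0.027 and 0.026), Lamb1 (0.026 and 0.027) and Nid1 (0.039 and 0.037) also passed, and 5 without the filter on low counts, when Sparc (0.024) and Lamb1 (0.047) did. It was 2 without the second library of either genotype at day 14, when Lama2 was lost. Over all genes tested, 13.6% were called in this comparison, 5.33% higher and 8.31% lower. The median log2 fold change of the 10 genes was 0.22, against 0.0040 over all genes. In bulk RNA, more cells of a type and more RNA per cell cannot be told apart.

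Lama1 (GRCm38 chr17:67697259-67822647, plus strand) encodes the laminin alpha 1 chain of the earliest embryonic basement membranes and of Reichert's membrane. It measured 487 and 478 CPM in 6A libraries at day 14, against 176 and 184 CPM in WT libraries. The groups lay far apart, and each pair of libraries nearly coincided. The difference was 2.67-fold (log2 1.42 ± 0.13 SE, edgeR adjusted p = 7.3e-06), and it passed the test in every alternative that used all reads, with adjusted p-values of at most 0.00099. Reads assigned to the 129 genome alone gave a log2 difference of 1.41 (adjusted p = 6.3e-06). They made up 99.27% to 99.92% of its allele-assigned reads and come from the same libraries, so this is not a separate result.

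Nid2 (chr14:19751265-19811787, plus strand) encodes nidogen 2, a linker between laminin and type IV collagen. Its 6A libraries held 854 and 785 CPM at day 14, against 532 and 494 CPM in WT libraries. Both 6A libraries were above both WT libraries, by 1.60-fold (log2 0.68 ± 0.12, adjusted p = 0.0018). Nid1 (chr13:13437551-13512269, plus strand), the other nidogen, had 602 and 635 CPM in 6A and 755 and 763 CPM in WT, a difference in the opposite direction that did not pass the test (log2 -0.29 ± 0.11, adjusted p = 0.089). Per kb of exon, the ratio of Nid1 to Nid2 was therefore 0.525 and 0.603 in 6A at day 14 and 1.06 and 1.15 in WT at day 14, while it was 0.462 and 0.571 in 6A and 0.416 and 0.448 in WT at day 0. Only the WT libraries at day 14 had more Nid1 than Nid2 per kb.

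Lama2 (chr10:26980036-27619758, minus strand) was at 14.2 and 12.8 CPM in 6A at day 14, against 22.4 and 26.1 CPM in WT. The groups did not overlap, and 6A was 1.80-fold lower (log2 -0.85 ± 0.19, adjusted p = 0.0079). This call was lost when the second 6A library at day 14 (log2 -0.77, adjusted p = 0.079) or the second WT library at day 14 (log2 -0.73, adjusted p = 0.11) was left out.

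The chains shared by most laminins differed less. Lamb1 (chr12:31265234-31329644, plus strand), the beta 1 chain, had 624 and 605 CPM in 6A and 488 and 502 CPM in WT at day 14 (log2 0.31 ± 0.12, adjusted p = 0.12). Lamc1 (chr1:153218922-153332786, minus strand), the gamma 1 chain, had 1251 and 1236 CPM in 6A and 1074 and 1059 CPM in WT (log2 0.22 ± 0.11, adjusted p = 0.23). Neither difference passed the test. The libraries of the genotypes did not overlap for either gene, as was the case for 56.7% of all genes tested. Lama5 (chr2:180176373-180225859, minus strand), the most widespread alpha chain, was fitted lower in 6A (554 and 528 CPM, against 718 and 613 CPM in WT; log2 -0.30 ± 0.13, adjusted p = 0.18), and Lama4 (chr10:38965515-39110188, plus strand) had log2 0.23 ± 0.15 (adjusted p = 0.35). Of the partners, Hspg2 (chr4:137468769-137570630, plus strand), which encodes the heparan sulfate proteoglycan perlecan, overlapped between genotypes (1077 and 947 CPM in 6A, 1246 and 1021 CPM in WT; adjusted p = 0.54). Sparc (chr11:55394500-55423183, minus strand) had 2757 and 2544 CPM in 6A and 2203 and 1931 CPM in WT (log2 0.36 ± 0.13, adjusted p = 0.079), which did not overlap and did not pass the test, although it passed in DESeq2 (adjusted p = 0.038).

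**Figure D2:**
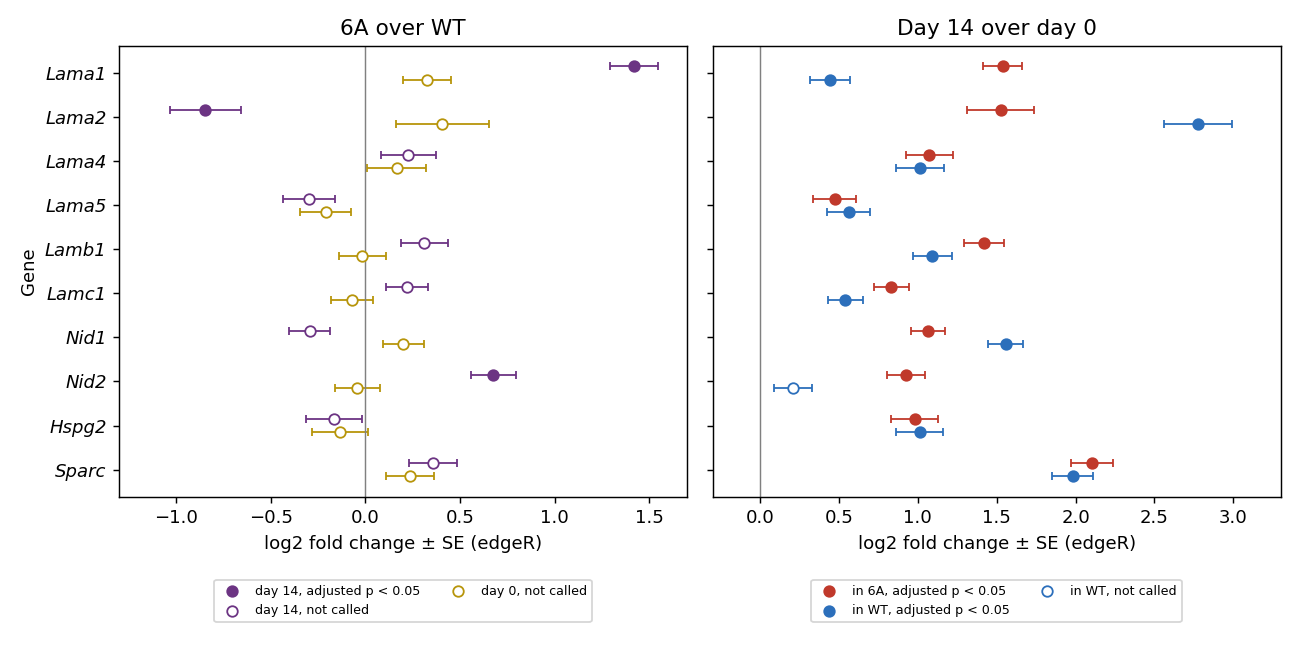
Log2 fold changes (x axis, with bars of 1 SE) of the 10 genes for 6A over WT (left, at day 14 and day 0) and for day 14 over day 0 (right, in 6A and WT); filled points passed the edgeR test at an adjusted p under 0.05. At day 14 the genotype difference of Lama1 is 1.42, that of Nid2 0.68 and that of Lama2 -0.85, and the other 7 lie between -0.30 and 0.36.

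Each laminin trimer holds a single alpha chain, so the alpha chains were set against each other. The share of each chain in the sum of Lama1, Lama2, Lama4 and Lama5 was taken per kb of exon. Lama1 made up 48.2% and 49.1% of this sum in 6A at day 14, against 21.2% and 24.3% in WT at day 14. At day 0 its share was 31.3% and 32.7% in 6A and 24.7% in both WT libraries. Lama5 had the complementary pattern, with 46.7% and 46.1% in 6A and 73.3% and 68.6% in WT at day 14, and 64.5% and 62.9% in 6A and 71.6% and 71.7% in WT at day 0. Lama1 and Lama5 were thus at nearly equal shares in 6A at day 14, whereas Lama5 was the main alpha chain in the other 3 groups. The shares are given as a description and were not tested.

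Lama4 held between 3.21% and 5.11% of the alpha sum in all 8 libraries. Lama2 held 0.83% and 0.78% in 6A and 1.59% and 2.04% in WT at day 14, and 0.45% and 0.62% in 6A and 0.36% and 0.40% in WT at day 0. The sum of the 4 alpha chains stayed between 0.588 and 0.689 of Lamc1 per kb in all 8 libraries, so the alpha to gamma balance moved little while the kind of alpha chain differed. Lamb1 was at 0.416 and 0.408 of Lamc1 per kb in 6A and 0.379 and 0.396 in WT at day 14, against 0.266 and 0.283 in 6A and 0.249 and 0.277 in WT at day 0.

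**Figure D3:**
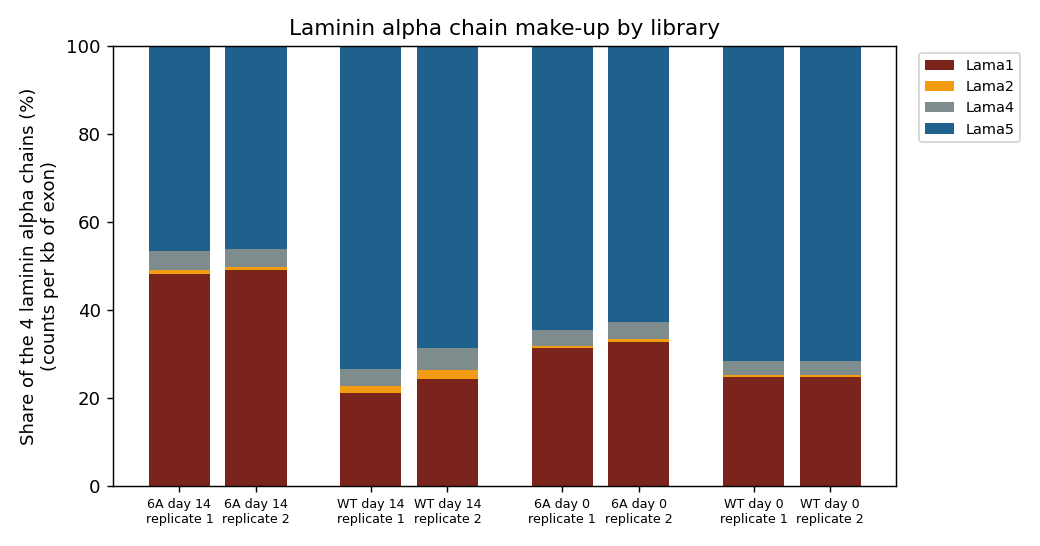
Share (%) of the summed laminin alpha chain level, per kb of exon, held by Lama1, Lama2, Lama4 and Lama5 in each library. In 6A at day 14 Lama1 holds 48.2% and 49.1%, in WT at day 14 21.2% and 24.3%.

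Before differentiation, at day 0, none of the 10 genes passed the edgeR test between 6A and WT, where 1.58% of all genes tested were called. The adjusted p-values ran from 0.22 to 0.97, DESeq2 also called 0 of the 10, and 1 gene was under an unadjusted p of 0.05. That gene was Lama1, with 169 and 164 CPM in 6A and 116 and 149 CPM in WT (log2 0.33 ± 0.12, unadjusted p = 0.021, adjusted p = 0.22). Its libraries did not overlap, as was the case for 45.6% of all genes, and the difference was smaller than at day 14. The median log2 fold change was 0.074, against 0.015 over all genes.

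The change of the genotype difference between the times was tested as the interaction, the log2 difference at day 14 minus that at day 0, for which 4.74% of all genes were called, 1.4% positive and 3.34% negative. It was called for 3 of the 10 genes, positive for Lama1 (1.09 ± 0.18, adjusted p = 0.0032) and Nid2 (0.72 ± 0.17, adjusted p = 0.028) and negative for Lama2 (-1.25 ± 0.31, adjusted p = 0.033). For Lama1 it held when any library was left out, with adjusted p-values of at most 0.028. For Nid2 it was lost in 5 of these 8 fits, without the second 6A library at day 0 (0.59, adjusted p = 0.18) or any 1 of the 4 libraries at day 14 (0.66 to 0.78, adjusted p = 0.054 to 0.14). For Lama2 it was lost without the same 5 libraries and also without the first WT library at day 0 (-1.06 to -1.36, adjusted p = 0.067 to 0.19). The remaining 7 genes had interactions between -0.49 (Nid1, adjusted p = 0.085) and 0.33 (Lamb1, adjusted p = 0.34).

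Nearly the whole group was higher at day 14 than at day 0, times between which feeders, leukemia inhibitory factor and culture form also differed. In 6A cells 10 of the 10 genes were higher at day 14 than at day 0, in a comparison in which 71.9% of all genes were called and 35.4% were called higher. In WT cells 9 of the 10 were higher, where 75.2% of all genes were called and 38.4% were called higher. The median log2 fold change of the 10 genes was 1.07 in 6A and 1.01 in WT, against -0.029 and 0.040 over all genes. The 6A and WT values come from separate libraries at both times.

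Sparc had the largest difference in 6A, with 2757 and 2544 CPM at day 14 against 638 and 595 CPM at day 0. That is 4.30-fold (log2 2.10 ± 0.13, adjusted p = 7.4e-09). In WT it had 2203 and 1931 CPM at day 14 against 574 and 473 CPM at day 0 (3.95-fold, log2 1.98 ± 0.13, adjusted p = 1.0e-08). The 2 genotypes had about the same Sparc change, with an interaction of 0.12 ± 0.18.

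Lama2 rose most in WT, to 22.4 and 26.1 CPM at day 14, against 2.84 and 4.02 CPM at day 0. This was 6.86-fold (log2 2.78 ± 0.22, adjusted p = 5.5e-08). In 6A it reached 14.2 and 12.8 CPM at day 14, against 4.10 and 5.21 CPM at day 0 (2.88-fold, log2 1.52 ± 0.21, adjusted p = 1.8e-05). Lama1 had the reverse order between the genotypes. In 6A it was 2.90-fold higher at day 14 (log2 1.54 ± 0.13, adjusted p = 1.0e-07), with 487 and 478 CPM against 169 and 164 CPM at day 0. In WT it was 1.36-fold higher (log2 0.44 ± 0.13, adjusted p = 0.0054), with 176 and 184 CPM at day 14 against 116 and 149 CPM at day 0.

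The nidogens also differed in their course. Nid2 was 1.90-fold higher at day 14 in 6A (854 and 785 CPM against 473 and 391 CPM at day 0; log2 0.92 ± 0.12, adjusted p = 1.0e-05). In WT it had 532 and 494 CPM at day 14 against 437 and 451 CPM at day 0 and was the only gene of the 10 that did not pass (log2 0.21 ± 0.12, adjusted p = 0.13). Nid1 was 2.09-fold higher in 6A (602 and 635 CPM against 293 and 299 CPM at day 0; log2 1.06 ± 0.11) and 2.94-fold higher in WT (755 and 763 CPM against 244 and 271 CPM at day 0; log2 1.56 ± 0.11). Day 14 and day 0 libraries did not overlap for either nidogen, nor for 86.9% of all genes in 6A and 86.3% in WT.

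The other chains and perlecan rose in both genotypes. Lamb1 had log2 changes of 1.42 in 6A and 1.09 in WT, and Lama4 of 1.07 in 6A and 1.01 in WT. Hspg2, at 1077 and 947 CPM at day 14 against 534 and 492 CPM at day 0 in 6A, changed by 0.98 in 6A and by 1.01 in WT. The changes were smaller for Lamc1 (0.83 in 6A, 0.54 in WT) and for Lama5 (0.47 in 6A, 0.56 in WT). Lama5 in 6A was the sole one of the 10 calls that a single library carried, being lost without the second 6A library at day 0 (log2 0.40, adjusted p = 0.065).

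Allele-assigned reads gave a second view of the same genes. The cross would give each gene a CAST and a 129 copy. However, the share of CAST reads among reads assigned to either was near 1% for most of the 10 genes. At day 14 it lay between 0 and 2.38% in every library for 8 of them, all but Nid1 and Lama5. Among the 20 nearest genes with enough allele reads around each of these 8, the median CAST share at day 14 was 0.80% to 1.17%, which is close to the shares of the genes themselves. Over all genes with at least 100 allele reads, chromosome medians were 0.93% (chromosome 10) to 1.04% (chromosome 1) for these 8 except Sparc. On chromosome 11, which holds Sparc, the median was 2.52%. Low CAST shares were thus not particular to these genes, and whether the cells carry a CAST copy of these regions was not tested. Nid1 (chromosome 13) and Lama5 (chromosome 2) sat in regions with reads of both genomes, where the medians of the neighbours were 48.2% and 50.7%.

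Nid1 had CAST shares of 50.9% and 52.8% in 6A and 53.4% and 52.9% in WT at day 14. At day 0 they were 16.6% and 18.8% in 6A and 21.6% and 20.5% in WT. Day 14 and day 0 did not overlap in either genotype. Counted on CAST reads alone, Nid1 was 7.32-fold higher at day 14 than at day 0 in 6A (log2 2.87, adjusted p = 2.5e-14) and 9.07-fold higher in WT (log2 3.18, adjusted p = 5.2e-15), compared with 2.09-fold and 2.94-fold on all reads. On 129 reads its log2 changes were 0.41 in 6A and 0.95 in WT. Shares of neighbouring genes were taken at day 14 only, so whether the whole region differed at day 0 is not known. The part of feeder RNA in the Nid1 shares at day 0 was not tested.

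Lama5 had CAST shares of 57.0% and 56.5% in 6A and 58.3% and 56.8% in WT at day 14, against 35.7% and 38.3% in 6A and 44.3% and 40.1% in WT at day 0. On CAST reads it was 2.44-fold higher at day 14 in 6A (log2 1.29, adjusted p = 1.2e-07) and 2.31-fold higher in WT (log2 1.21, adjusted p = 2.9e-07). On 129 reads the change was -0.017 in 6A (adjusted p = 0.94) and 0.15 in WT (adjusted p = 0.44), so the Lama5 change passed the test on CAST reads and not on 129 reads. Whether the 2 changes differ was not tested, and the limits given for Nid1 at day 0 also hold for Lama5.

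Some CAST reads were also present at day 0 for genes whose neighbourhood was 129 at day 14. Lamb1 had CAST shares of 1.99% and 1.20% in 6A and 1.42% and 0.89% in WT at day 14, against 10.2% and 7.89% in 6A and 8.73% and 5.92% in WT at day 0. Lamc1 had at most 1.09% at day 14, against 4.32% and 5.68% in 6A and 3.70% and 3.98% in WT at day 0. Lama2 had 19.2% and 18.9% in 6A and 28.6% and 13.0% in WT at day 0, from 14 to 37 allele reads per library, which leaves wide intervals. These shares were higher in the day 0 libraries, in which Y-linked genes were detected. The fibroblast and feeder list had sums of 16985 to 21819 CPM at day 14 and 5350 to 7068 CPM at day 0. Of its 20 genes, 13 were called higher and 5 lower at day 14 in 6A, and 17 higher and 3 lower in WT. Over all genes, 35.4% were called higher and 36.6% lower in 6A, and 38.4% and 36.8% in WT. The part of feeder RNA was not tested. The sources used here do not give the strain of the feeders.

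**Figure D4:**
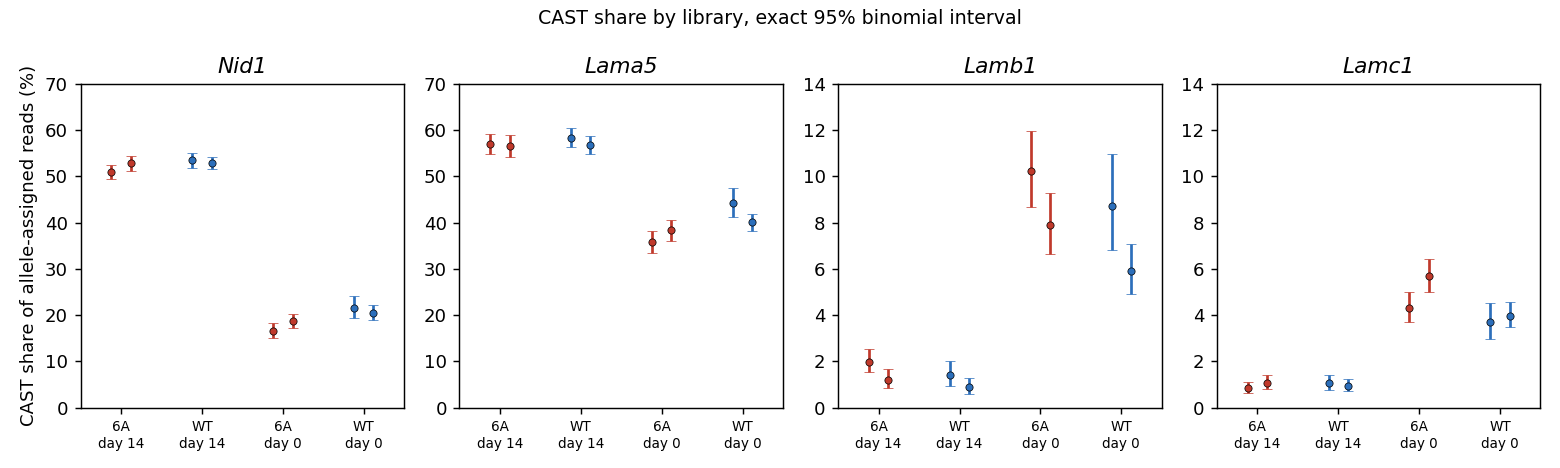
Share (%) of CAST reads among allele-assigned reads of Nid1, Lama5, Lamb1 and Lamc1 in each library (points), with exact 95% binomial intervals that cover counting error only; the y axes of the first pair of genes reach higher than those of the other pair. Nid1 lies at 50.9% to 53.4% at day 14 and at 16.6% to 21.6% at day 0, while Lamb1 lies at 0.89% to 1.99% at day 14 and at 5.92% to 10.2% at day 0.

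Related genes of the basement membrane were also compared between the genotypes at day 14. Among the laminin chains outside the 10, Lamb3, the beta 3 chain of the epithelial laminin of hemidesmosomes, had 1.74 and 2.61 CPM in 6A and 9.16 and 8.46 CPM in WT (log2 -2.01 ± 0.28, adjusted p = 0.00035). Both 6A libraries were below both WT libraries. Lama3, the alpha 3 chain, did not pass (log2 -0.33 ± 0.24, adjusted p = 0.42).

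In 6A at day 14, 5.33% of all genes tested were called higher and 8.31% lower. Of 8 basement membrane collagens, 0 were higher and 1 was lower in 6A at day 14 (median log2 -0.021, against 0.0040 over all genes). That was Col18a1, the source of endostatin (339 ± 60.6 CPM in 6A, 564 ± 100.1 CPM in WT; log2 -0.73 ± 0.16, adjusted p = 0.0096), which was lost without the second 6A or the first WT library at day 14 (adjusted p = 0.11 and 0.12). Of 20 other basement membrane and linker proteins, 3 were higher and 4 lower (median -0.085). Frem2, part of the Fraser complex that anchors embryonic epidermis, averaged 62.6 ± 1.14 CPM in 6A and 265 ± 7.19 CPM in WT (log2 -2.08 ± 0.12, adjusted p = 1.9e-07). Agrn, which encodes the proteoglycan agrin, was lower in 6A (log2 -0.76, adjusted p = 0.0016), and Fbln5, an elastic fiber protein, was higher (log2 1.32, adjusted p = 0.0019).

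Of 14 receptors, 1 was higher and 2 were lower in 6A at day 14 (median -0.076), beside 5.33% and 8.31% of all genes tested. Itgb4, the integrin beta 4 chain of hemidesmosomes, had 6.37 and 6.85 CPM in 6A and 19.5 and 18.0 CPM in WT (log2 -1.50 ± 0.20, adjusted p = 0.00023), with an interaction of -1.56 (adjusted p = 0.0066). Bcam, a receptor of laminin alpha 5, was also lower (log2 -0.73, adjusted p = 0.0020), and Sdc4, the proteoglycan syndecan 4, was higher (log2 0.58, adjusted p = 0.0052), which was lost without the second WT library at day 14 (adjusted p = 0.080). Of 17 collagen folding and crosslinking enzymes, 1 was higher (Lox, lysyl oxidase; log2 0.52, adjusted p = 0.0039) and 1 was lower (P4ha2, a prolyl hydroxylase subunit; log2 -0.79, adjusted p = 0.0013). Of 17 tested matrix proteases and inhibitors, 5 were higher and 1 lower (median 0.18). Mmp9, a type IV collagenase, had 96.6 and 64.0 CPM in 6A and 11.5 and 12.3 CPM in WT (log2 2.75 ± 0.20, adjusted p = 1.8e-06).

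At day 0 these lists, with 8, 20, 14, 17 and 17 genes tested, held 5 called genes in all. In this comparison 1.58% of all genes tested were called, 1.06% higher and 0.518% lower. Frem2 (log2 -0.73, adjusted p = 0.020), Bcam (-0.79, adjusted p = 0.014) and P4ha3, a prolyl hydroxylase subunit (-0.95), were lower in 6A. Lox (0.63, adjusted p = 0.011) and Timp3, a matrix-bound protease inhibitor (0.62, adjusted p = 0.014), were higher. Each of the 5 was lost without at least 1 library. At day 14 most members of these lists were higher than at day 0, with 7 of the 8 collagens in both genotypes and 10 of the 14 receptors in 6A and 11 in WT, where 35.4% of all genes in 6A and 38.4% in WT were called higher.

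Markers of several cell types differed between the genotypes at day 14, beside Lama1, Nid2 and Lama2. The counts below stand beside 5.33% of all genes tested that were called higher in 6A and 8.31% that were called lower. Of 10 parietal endoderm markers, the cells that make Reichert's membrane, 2 were higher in 6A and 0 lower, and their summed level was 1209 to 1278 CPM in 6A and 1025 to 1087 CPM in WT. Of 12 visceral endoderm markers 4 were higher and 0 lower (492 to 558 CPM in 6A, 337 to 338 CPM in WT), and of 12 endothelial markers 4 were higher and 0 lower (499 to 509 CPM in 6A, 363 to 364 CPM in WT). Of those named by the rule, Tie1, an endothelial receptor, was lost without the first 6A (adjusted p = 0.13), the first WT (0.064) or the second WT library at day 14 (0.11), Cdh5, the endothelial cadherin, without the second WT library (0.054), and Trf, transferrin, of the visceral endoderm list, without the same 3 libraries as Tie1 (0.061 to 0.14). Of 12 cardiac muscle markers 12 were lower in 6A (298 to 318 CPM, against 1579 to 1773 CPM in WT), as were 6 of 9 smooth muscle markers (1565 to 1686 CPM in 6A, 2221 to 2632 CPM in WT) and 8 of 12 neural markers (569 to 612 CPM in 6A, 800.0 to 840.0 CPM in WT). Of 12 pluripotency markers, 5 were higher in 6A and 0 lower, with sums of 756 to 770.2 CPM in 6A and 547 to 592 CPM in WT. The named ones, Tfcp2l1, Tdgf1 and Esrrb, each lost the call when single libraries at day 14 were left out. Their log2 differences in those fits were 0.47 and 0.52 for Tfcp2l1, 0.56 and 0.55 for Tdgf1, and 0.41, 0.59 and 0.59 for Esrrb. No marker of these 7 lists was at 0 in either group at day 14. Of the fibroblast list, 3 were higher and 4 lower of 20, and its sums overlapped between the genotypes (17633 to 21819 CPM in 6A, 16985 to 19377 CPM in WT). The part of these cell types in the levels of the 10 genes was not tested.

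The 10 genes did not share one pattern over the 8 libraries. The root mean square difference between centred log2 CPM profiles was smallest between Lama4 and Lamb1 (0.15) and largest, at 0.99, between Lama2 and Nid2 and between Lama1 and Lama2. Candidates were 11202 genes that averaged 5 CPM or more. Predicted and Rik-named genes, pseudogenes and symbols without a GENCODE match were passed over. Those nearest to Lama1 were Csgalnact1 (0.17), Igfbp6 (0.19) and Met (0.19). Nearest to Lama2 were Fat4 (0.13), Pnmal2 (0.15) and Tuft1 (0.16), and nearest to Nid2 were Cbx6 (0.066), Man2b1 (0.086) and Arap1 (0.10). Sparc lay nearest to Ltbr (0.073), Rian (0.11) and Tspan7 (0.11). These distances describe the libraries and carry no test.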

How the data were processed

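The deposited tables hold whole-number raw counts of reads per gene, which the authors did not normalize, for all reads and for reads assigned to the CAST and to the 129 genome (the column named mus, taken as 129 from the cross). Per the submitters' processing notes, cutadapt 1.4.2, STAR 2.7.10a and mm10 were used, and per the labels' protocols RNA was depleted of ribosomal RNA and libraries were directional. The counting tool, its strand setting, the annotation and the allele method are not named in these sources, so overlapping and antisense genes may share reads. The labels give day 14, which is used here, although the series' design sentence names an earlier day.

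Counts of all reads from 8 libraries were filtered with filterByExpr, scaled by TMM and fitted with the edgeR 4.0.16 quasi-likelihood test (R 4.3.3), with 1 coefficient per group and 4 residual degrees of freedom. P-values were adjusted by Benjamini and Hochberg's method over all 15458 tested genes, and values under 0.05 were called, in 5 comparisons. CPM are counts scaled to the library size times the TMM factor; the floor of 3 counts, 0.193 to 0.368 CPM, leaves the factor out. Lengths are merged exons of GENCODE M21 (GRCm38, the same assembly as mm10). The fit was tested on simulated data. The labels call the libraries biological replicates but do not tie them to separate cultures, so p-values measure only the spread between these libraries. Allele intervals are exact 95% binomial intervals and cover counting error only.

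Alternatives were RLE scaling, no filter, DESeq2 1.42.0, a fit of the compared groups only, a replicate block, leaving out each library, and CAST or 129 reads alone. The genes, related lists and cell type lists were chosen with earlier results of these data known. All 10 genes are named, with up to 3 called genes of each other list by smallest adjusted p in a comparison (2 in the interaction), and the 3 genes nearest to a member. A gene that the rule named, and the counts of its list, are not reported here. Lama3 was added to the named genes after its values were seen. Sequences are from RefSeq.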

Additional observations from a re-analysis of the deposited data

Results flagged for a closer look

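The change of the genotype difference between the 2 times passed the interaction test of edgeR over all genes for 3 of the 10 genes. That of Lama1 held when any 1 library was left out, while those of Nid2 and Lama2 were lost in most of these fits. On 129 reads alone the edgeR interaction did not pass for Nid2 (adjusted p = 0.13) or Lama2 (adjusted p = 0.15). For Lama1 the log2 difference of 6A against WT was 1.42 at day 14 and 0.33 at day 0, which differ by 1.09 ± 0.18 (adjusted p = 0.0032). For Nid2 it was 0.68 at day 14 and -0.041 at day 0, which differ by 0.72 ± 0.17 (adjusted p = 0.028). Lama2 had the opposite sign at each time, -0.85 at day 14 and 0.41 at day 0, which differ by -1.25 ± 0.31 (adjusted p = 0.033). Both libraries of 6A were above both of WT for Lama2 at day 0 and below both at day 14. The genotypes likewise did not overlap for 45.6% of all genes at day 0 and 56.7% at day 14. The Lama2 difference at day 0 did not pass the edgeR test (adjusted p = 0.43). Lama2 rests on low levels at day 0, 2.84 to 5.21 CPM, where cells had grown on feeders.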

How the results depend on the processing

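The number of the 10 genes called between 6A and WT at day 14 was 3, and became 5 without a filter, 5 with the replicate block, 2 to 6 when 1 library was left out (6 without either WT library at day 0) and 0 with CAST reads, where 7 could be tested. The genes that entered were Sparc, Lamb1 and Nid1. Lama1 and Lama2, called on all reads, were not among the 7 tested on CAST reads. Of those 7, all but Nid1 and Lama5 had CAST shares of at most 1.99% at day 14. Counts with CAST reads therefore cannot tell whether the calls on all reads hold. For WT at day 14 against day 0 the 9 called higher became 5 called in either direction with CAST reads, where the same 7 could be tested. Lama5, Nid1 and Sparc were higher there, and Lamb1 and Lamc1 were lower. The interaction count of 3 became 1 to 4 when 1 library was left out, 0 with CAST reads and 1 with 129 reads. The labels tie same-numbered libraries by number only. Correlations of their deviations over 6 pairs of groups were all positive, from 0.02 to 0.483. The highest was between 6A at day 0 and 6A at day 14. Whether same-numbered libraries share a batch was not tested. With the block 4 interactions were called in edgeR, Nid1 among them (adjusted p = 0.032). By counts not divided by length, the alpha shares of Lama1 were 44.3% in 6A and 19.8% in WT at day 14 and 28.4% in 6A and 21.8% in WT at day 0, of Lama2 1.24% in 6A and 2.67% in WT at day 14 and 0.80% in 6A and 0.56% in WT at day 0, of Lama4 4.76% in 6A at day 14, 4.21% in 6A and 3.59% in WT at day 0, and of Lama5 49.7% in 6A at day 14, 66.6% in 6A and 74.1% in WT at day 0. With Lama3 in the sum, Lama1 in WT at day 0 had 24.4%, Lama5 70.7% and Lama4 in 6A at day 0 3.75%.

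Where a value passed the test on all reads or in an alternative, its sign turned only with reads of 1 genome. Log2 changes of day 14 against day 0 on CAST reads were -0.90 in 6A and -1.37 in WT for Lamb1, -1.31 in 6A and -1.22 in WT for Lamc1, and -4.11 in WT for Mmp2; on 129 reads they were -0.017 for Lama5 in 6A and -0.29 for Col4a5 in WT. Between 6A and WT, CAST reads gave 0.22 for Col18a1 and -0.00581 for Esrrb at day 14, and 129 reads gave 0.24 for Hnrnpk at day 14 and 0.13 for P4ha3 at day 0. The cause was not tested. Another 28 values of the 10 genes that did not pass either way also changed sign, over all alternatives. Some of these used all reads, such as Hspg2 between 6A and WT at day 0 (log2 -0.33 to 0.091). Few allele reads limit Lama2 and Lama4. Few CAST reads at day 14 limit Lamb1 (26 to 63 per library) and Lamc1 (44 to 59). The CAST shares of Lamb1 and Lamc1 at day 14 were close to the medians of their chromosomes, 0.98% and 1.04%. Their CAST fits thus rest on a small share of the reads.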
